A study of Mus musculus with 18 samples.

Results

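The 10 genes described here encode cell-surface receptors for extracellular nucleotides and adenosine: the ATP-gated channel subunits P2rx1, P2rx4, P2rx6 and P2rx7, the G protein-coupled nucleotide receptors P2ry1, P2ry2, P2ry6 and P2ry14, and the adenosine receptors Adora1 and Adora2a. They were chosen by name, and they are 10 of the 26327 genes of the deposited count table. RNA was sequenced from 3 populations of cells sorted from the trachea of naïve mice. Per the labels, all mice carried Tg(RP23-268L19-EGFP)2Mik on a B6.Cg background, a bacterial artificial chromosome transgene that drives eGFP from the Chat locus (choline acetyltransferase), so the brush cell gate rests on the activity of that locus. Brush cells, the chemosensory cells of the airway epithelium, were the eGFP+ cells among CD45- EpCAM+ cells (7 libraries). EpCAM+ cells were CD45- EpCAM+ (7 libraries), a gate that, as worded, also admits eGFP+ cells, and CD45+ hematopoietic cells were sorted apart from these (4 libraries). Tracheas were digested with dispase and papain, and propidium iodide marked dead cells for exclusion. The labels give neither age nor sex and do not say whether libraries of 1 group came from separate animals, so p-values measure the spread between these libraries, which may be technical.

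Purinergic signalling begins when cells release ATP through channels or vesicles. P2X receptors are cation channels that ATP opens, while P2Y receptors couple to G proteins and are tuned to ATP, ADP, UTP, UDP or UDP-sugars. Surface enzymes strip phosphates from ATP until adenosine is left, which acts on its own G protein-coupled receptors before transporters and enzymes clear it. In airway epithelium, nucleotides and adenosine are best known for control of chloride secretion, mucociliary clearance and repair, and in taste cells, which share much of their signalling cascade with brush cells, ATP leaves through a CALHM channel to act as a transmitter.

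Total counts ran from 838328 to 6031711 in brush libraries, from 2442601 to 6087184 in EpCAM+ libraries and from 371652 to 7438791 in CD45+ libraries. Brush replicate 4, EpCAM+ replicate 5 and CD45+ replicate 1 correlated least with their own groups, and the first and last of these were also the shallowest of their groups. Receptor calls that these 3 libraries change are given with and without them. The labels held against markers, given in CPM, the count scaled to a common effective library size: the summed level of 7 brush markers was 8650 to 10200 CPM in brush libraries, 8.07 to 33.7 CPM in EpCAM+ libraries and 0 to 57.8 CPM in CD45+ libraries. Basal cell markers summed to 3590 to 5940 CPM and club cell markers to 11500 to 57700 CPM in EpCAM+ libraries, and pan-leukocyte markers summed to 4990 to 5910 CPM in CD45+ libraries. Levels below are CPM, with mean ± SD over n = 7, 7 and 4 brush, EpCAM+ and CD45+ libraries and values listed in replicate order, and differences are fitted log2 fold changes ± SE from edgeR's quasi-likelihood test with Benjamini-Hochberg adjusted p over all genes tested.

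Brush cells differed from EpCAM+ cells in 6 of the 10 receptors. The adenosine A1 receptor gene Adora1 was 62.5-fold higher in brush cells, P2rx1 30.6-fold, P2ry6 12.9-fold and P2rx6 6.97-fold, and the ADP receptor gene P2ry1 was 37.3-fold lower. Adora2a was also called lower, on few counts. P2rx4, P2rx7, P2ry2 and P2ry14 did not pass the test. Thus 4 of 10 receptors were higher and 2 of 10 lower, where 18.3% and 22% of the 13418 genes tested were called higher and lower, 40.3% in all. The median log2 fold change was 0.27 over the 10 receptors and -0.06 over all genes tested. All 10 passed the filter on low counts, but no EpCAM+ library reached its minimum for Adora1, P2rx1, P2ry6 or Adora2a and only 2 did for P2rx6. The filter asked for 4 libraries. Adora1 reached this in brush libraries alone, and P2rx1 (4 brush, 3 CD45+) and P2rx6 (7 brush, 2 EpCAM+) only with the brush libraries. P2ry6 reached it in brush (5) and in CD45+ libraries (4), and Adora2a in CD45+ libraries alone. The counts of called receptors are therefore a description. So are the p-values of genes that passed the filter only through the group where they are high. Brush and EpCAM+ libraries did not overlap in 3 of the 10 receptors, against 20.3% of all genes tested. In sorted bulk cells, fewer cells that express a gene and less RNA per cell cannot be told apart.

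**Figure D1:**
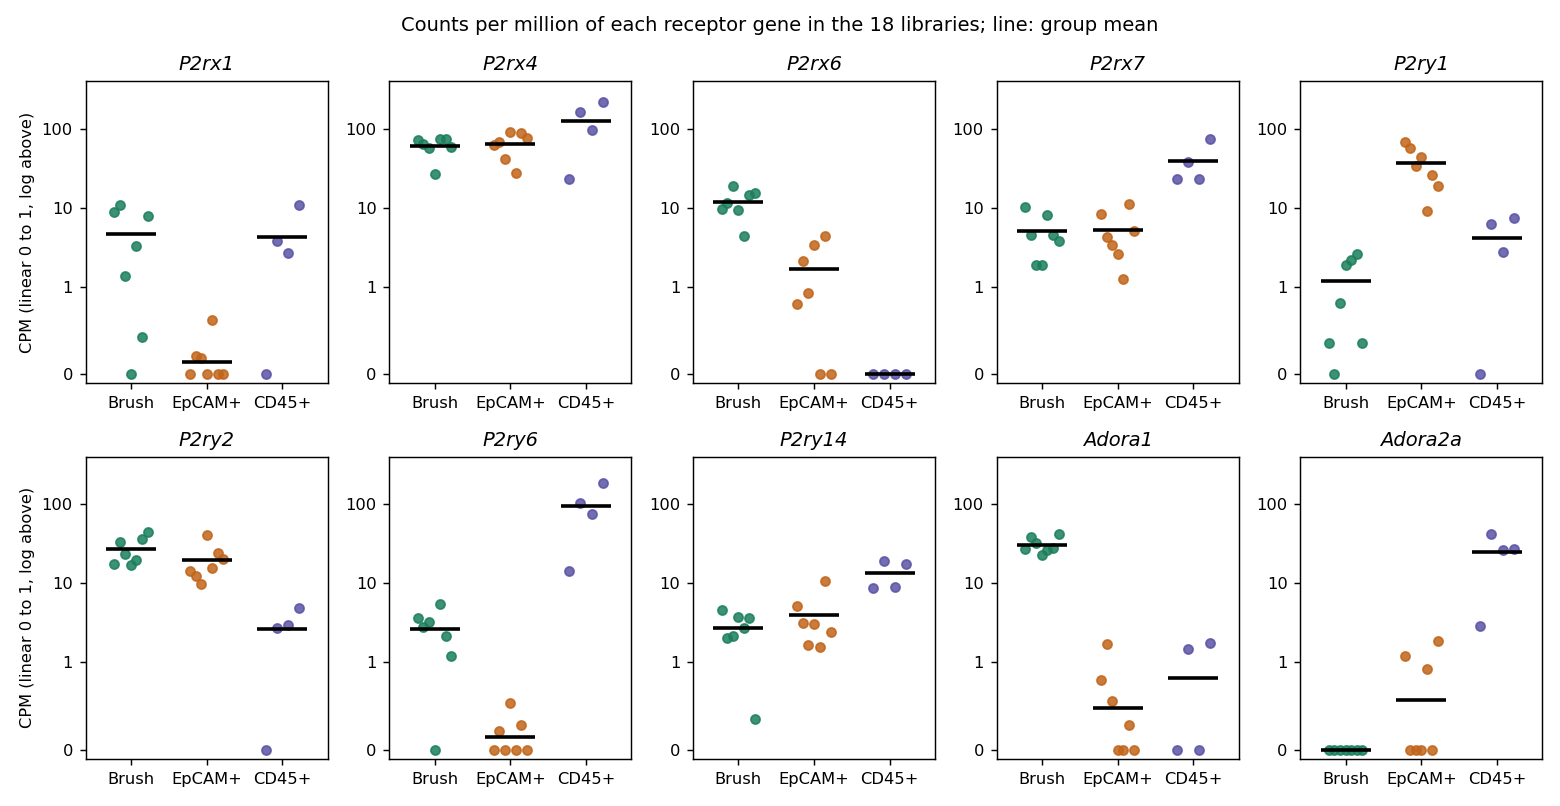
CPM (vertical axis, linear from 0 to 1 and logarithmic above) of the 10 receptor genes in 7 brush, 7 EpCAM+ and 4 CD45+ libraries, with 1 point per library and a line at the group mean. The brush points for Adora1 and P2rx6 lie above all EpCAM+ and CD45+ points, those for P2ry1 lie below all EpCAM+ points, and every brush point for Adora2a is at 0.

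The 3 receptors whose brush and EpCAM+ libraries did not overlap are Adora1 and P2rx6, higher in brush cells, and P2ry1, lower. The 250 bases before their RefSeq transcription start (assembly GRCm38.p6) are printed here, 5′ to 3′ on the gene's strand, because in these receptors every brush library lay apart from every EpCAM+ library. Capitals mark matches to the GC box GGGCGG or its reverse CCGCCC, and to the TATA box TATAAA or its reverse TTTATA. The Adora1 window (chr1:134235458-134235707, minus strand, the first of 2 listed starts) holds 3 adjacent GC boxes near its end, and the window of the other Adora1 start, not printed, holds none. The P2rx6 window (chr16:17561635-17561884, plus strand) holds 1 GC box and 1 TATA box, and the P2ry1 window (chr3:61002535-61002784, plus strand) holds 2 GC boxes.
Adora1: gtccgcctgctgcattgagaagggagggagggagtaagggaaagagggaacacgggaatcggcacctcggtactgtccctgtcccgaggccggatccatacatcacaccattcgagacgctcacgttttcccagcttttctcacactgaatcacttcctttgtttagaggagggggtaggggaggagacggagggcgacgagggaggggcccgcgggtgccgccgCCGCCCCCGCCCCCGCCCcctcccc
P2rx6: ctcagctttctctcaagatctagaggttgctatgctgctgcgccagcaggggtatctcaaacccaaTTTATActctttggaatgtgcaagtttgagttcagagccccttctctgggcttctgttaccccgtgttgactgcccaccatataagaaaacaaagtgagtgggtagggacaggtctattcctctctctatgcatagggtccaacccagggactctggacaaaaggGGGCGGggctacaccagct
P2ry1: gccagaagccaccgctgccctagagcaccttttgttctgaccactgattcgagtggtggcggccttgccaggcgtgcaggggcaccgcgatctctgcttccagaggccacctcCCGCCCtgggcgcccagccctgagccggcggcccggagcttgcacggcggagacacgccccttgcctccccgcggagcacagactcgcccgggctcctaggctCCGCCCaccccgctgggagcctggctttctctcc
GC content was 64.4% for Adora1, 50.8% for P2rx6 and 70.8% for P2ry1, beside a median of 52.4% over the 32851 promoter windows of the same length in the table. Of those windows 32.7% held a GC box and 12.4% a TATA box on either strand. The octamer ATGCAAAT, the letters bound by POU factors such as the brush cell regulator Pou2f3, was also searched on both strands: it was in none of the 14 windows listed for 8 of the 10 receptors and in 1.6% of all windows. Its inner part TGCAAA, which every full octamer also holds, was in the P2rx4 window and in 13.5% of all windows. These are letter matches in this window only.

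P2rx1 encodes the fast-desensitizing ATP-gated channel known from platelets and smooth muscle, and it lies on chromosome 11 (72999103 to 73015200, GRCm38). Its brush libraries, replicates 1 to 7, held 8.88, 10.9, 1.35, 0, 3.27, 0.427 and 7.73 CPM. EpCAM+ libraries held 0 to 0.617 CPM with a median of 0, from 4 counts in all, and CD45+ libraries held 0, 3.74, 2.63 and 10.7 CPM. Brush replicates 1, 2 and 7 were the high ones, replicates 3 and 5 were also above every EpCAM+ library, and replicates 4 and 6 fell into the EpCAM+ range.
P2rx1 was higher in brush than in EpCAM+ cells (4.93 ± 0.91, adjusted p = 0.000112, edgeR) and lower in EpCAM+ than in CD45+ cells (-4.89 ± 0.97, adjusted p = 0.000229, edgeR), while brush and CD45+ cells, at 4.66 ± 4.46 and 4.26 ± 4.55 CPM, did not differ past the threshold (0.05 ± 0.79, adjusted p = 0.969, edgeR). The 2 deposited quantifications gave unlike values for this gene: 181 counts over the brush libraries in the count table and 67 in the RSEM gene files, with a brush against EpCAM+ difference of 3.95 from the latter (adjusted p = 0.00144, edgeR). Without EpCAM+ replicate 5, which held 2 of the 4 counts, the difference from the count table was 5.63 (adjusted p = 6.17e-05, edgeR), and without the 3 libraries that stood apart it was 5.84.
Platelet and megakaryocyte markers summed to 0 to 2.72 CPM in brush, 0.802 to 4.72 CPM in EpCAM+ and 164 to 1360 CPM in CD45+ libraries. The CD45+ sum was mostly Pf4, with a mean of 612 CPM. Ppbp was at 0 in brush libraries, and Gp1bb was at 0 in both brush and CD45+ libraries. The part of platelet RNA in the P2rx1 level of brush cells was not tested.

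P2rx4 encodes a widely expressed ATP-gated channel of the cell surface and lysosomes, and P2rx7 the channel that needs high ATP and is known for inflammasome activation in macrophages. They are neighbours on chromosome 5, with P2rx7 (122643911 to 122691432) ending 16111 bases before P2rx4 (122707544 to 122729738). P2rx4 was at 26.4 to 74.5 CPM in brush libraries with a median of 63.4, at 27.8 to 91.1 CPM in EpCAM+ libraries with a median of 68.2, and at 23.0, 160, 94.9 and 214 CPM in CD45+ libraries. Brush and EpCAM+ libraries overlapped almost fully, and the low CD45+ library was replicate 1, with 8 counts.
The brush against EpCAM+ difference of P2rx4 was -0.08 ± 0.35 (adjusted p = 0.89, edgeR). Against CD45+ cells P2rx4 was lower in brush cells (-1.04 ± 0.40, adjusted p = 0.0393, edgeR), a call lost without brush replicate 1, 2, 3, 4 or 7 or CD45+ replicate 2 or 4 (adjusted p = 0.0533 to 0.244) and under 3 other settings. EpCAM+ and CD45+ cells differed by -0.96 ± 0.40 (adjusted p = 0.0625, edgeR), and by -1.27 (adjusted p = 0.00453) without CD45+ replicate 1 or -1.13 (adjusted p = 0.000777) without the 3 libraries that stood apart.
P2rx7 was at 1.89 to 10.3 CPM in brush libraries with a median of 4.46, at 1.23 to 11.2 CPM in EpCAM+ libraries with a median of 4.25, and at 23.0, 37.6, 22.9 and 73.9 CPM in CD45+ libraries. Every CD45+ library was above every library of both epithelial groups. P2rx7 was 7.70-fold lower in brush than in CD45+ cells (-2.94 ± 0.50, adjusted p = 3.65e-05, edgeR) and 7.90-fold lower in EpCAM+ cells (-2.98 ± 0.50, adjusted p = 2.98e-05, edgeR), and the epithelial groups did not differ past the threshold (0.04 ± 0.45, adjusted p = 0.966, edgeR).

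P2rx6 encodes a P2X subunit that forms channels poorly on its own and is known mainly as a partner of other subunits, and it lies on chromosome 16 (17561885 to 17577800). Brush libraries held 9.61, 11.6, 18.7, 9.43, 4.35, 14.5 and 15.1 CPM, EpCAM+ libraries 0 to 4.33 CPM with a median of 0.929, and all 4 CD45+ libraries 0. The lowest brush library, replicate 5, sat just above the highest EpCAM+ library, replicate 6. P2rx6 was higher in brush than in EpCAM+ cells (2.80 ± 0.62, adjusted p = 0.0011, edgeR), and, as pooled counts over pooled library sizes against a floor of 3 counts over the CD45+ group, it was at least 76.0-fold higher in brush cells (adjusted p = 3.27e-05, edgeR) and at least 10.9-fold higher in EpCAM+ cells (adjusted p = 0.0029, edgeR). The last of these was lost with limma voom (adjusted p = 0.057), which also put the brush against EpCAM+ difference at 3.58. Since P2rx6 passed the filter only with the brush libraries, its p-values are a description.
P2rx6 shares 554 exon bases, 13.9% of its own, with Slc7a4 on the opposite strand. Slc7a4 held 3188, 636 and 46 counts in brush, EpCAM+ and CD45+ libraries, where P2rx6 held 387, 57 and 0. The sources used here do not say whether counting used strand, so reads of the shared stretch cannot be told apart.

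P2ry1 encodes an ADP receptor that couples to phospholipase C, and it lies on chromosome 3 (61002795 to 61008982). Brush libraries held 0.363, 0, 0.813, 1.89, 2.18, 2.56 and 0.357 CPM, from 25 counts in all. EpCAM+ libraries held 68.6, 56.1, 33.2, 43.1, 8.95, 25.7 and 18.6 CPM, and CD45+ libraries 0, 6.23, 2.74 and 7.37 CPM. Every EpCAM+ library was above every brush and CD45+ library, and the lowest of them was replicate 5.
P2ry1 was lower in brush than in EpCAM+ cells (-5.22 ± 0.62, adjusted p = 4.14e-07, edgeR), higher in EpCAM+ than in CD45+ cells (2.90 ± 0.66, adjusted p = 0.000982, edgeR) and lower in brush than in CD45+ cells (-2.32 ± 0.69, adjusted p = 0.00811, edgeR). Brush replicate 6 held 12 of the 25 brush counts, and without it the differences were -5.84 from EpCAM+ cells and -2.93 from CD45+ cells. An antisense gene of the annotation covers 992 of its exon bases, 23.1%. Summed markers of basal, club and ciliated cells and of fibroblasts moved the same way, while those of some other types did not. The sums in brush and EpCAM+ libraries were 51.3 to 202 and 3590 to 5940 CPM for basal cells, and 159 to 560 and 11500 to 57700 CPM for club cells. They were 0.213 to 3.85 and 19.5 to 87.9 CPM for ciliated cells, and 3.63 to 26.4 and 251 to 519 CPM for fibroblasts. The fibroblast sum was mostly Dcn, with means of 5.59 and 367 CPM. Of the other fibroblast markers, Pdgfra was higher in brush libraries (7.52 and 0.0853 CPM). Col1a1 (0.664 and 0.429 CPM) and Col1a2 (0.27 and 0.333 CPM) were low in both groups. Of the basal markers, Ngfr was near equal (means of 35.6 and 39.1 CPM). Sums higher in brush libraries, as medians in brush and EpCAM+ libraries, were pan-epithelial (7500 and 2230 CPM) and pan-leukocyte (27.1 and 1.06 CPM). So were mast cell (161 and 22.2 CPM, in brush libraries from Kit alone) and neuron and Schwann markers (6.9 and 2.96 CPM). The part of these cell types in the P2ry1 difference was not tested.

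P2ry2, the gene of the ATP and UTP receptor that drives epithelial chloride secretion, was counted in every library of both epithelial groups. It lies on chromosome 7 (100996568 to 101012866), 21918 bases from P2ry6. Brush libraries held 17.0 to 44.6 CPM with a median of 23.8, EpCAM+ libraries 9.85 to 41.0 CPM with a median of 15.4, and CD45+ libraries 0, 2.74, 2.96 and 4.83 CPM. The epithelial groups overlapped, and both stood above every CD45+ library. P2ry2 was 8.60-fold higher in brush than in CD45+ cells (3.10 ± 0.49, adjusted p = 1.37e-05, edgeR) and 6.09-fold higher in EpCAM+ than in CD45+ cells (2.61 ± 0.48, adjusted p = 0.000103, edgeR). The brush against EpCAM+ difference was 0.50 ± 0.33 (adjusted p = 0.251, edgeR).
On the length-scaled TPM of the deposited RSEM files, P2ry2 stood at 25.8 ± 9.47 in brush (n = 7) and 7.08 ± 4.08 in EpCAM+ cells (n = 7), a wider gap than the 27.5 ± 10.8 and 19.7 ± 10.5 CPM of the count table. TPM is scaled by RSEM's estimate of the abundance-weighted transcript length, so the wider gap and that length are not separate observations. TPM also lacks the scaling to effective library size that CPM has. P2rx4, whose lengths overlapped, stood at 55.0 and 44.4 TPM but 60.6 and 64.5 CPM in brush and EpCAM+ cells. The part of length in the P2ry2 gap was not tested. For P2ry2 the length was 886 to 2113 bases in brush libraries (mean 1667 ± 433) and 2266 to 2783 bases in EpCAM+ libraries (mean 2586 ± 195). The 7 brush values all lay below the 7 EpCAM+ values (two-sided exact permutation test, p = 0.000583, the smallest that 7 against 7 allows, and 0.00175 after adjustment over the 3 receptors with RSEM counts in all 14 brush and EpCAM+ libraries). For P2rx4 and P2ry14 the same test gave p = 0.46 and p = 0.236 (exact permutation). P2ry2 was singled out here after its values were seen, and the length is an estimate over 6 annotated transcripts, not a measured one.

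**Figure D2:**
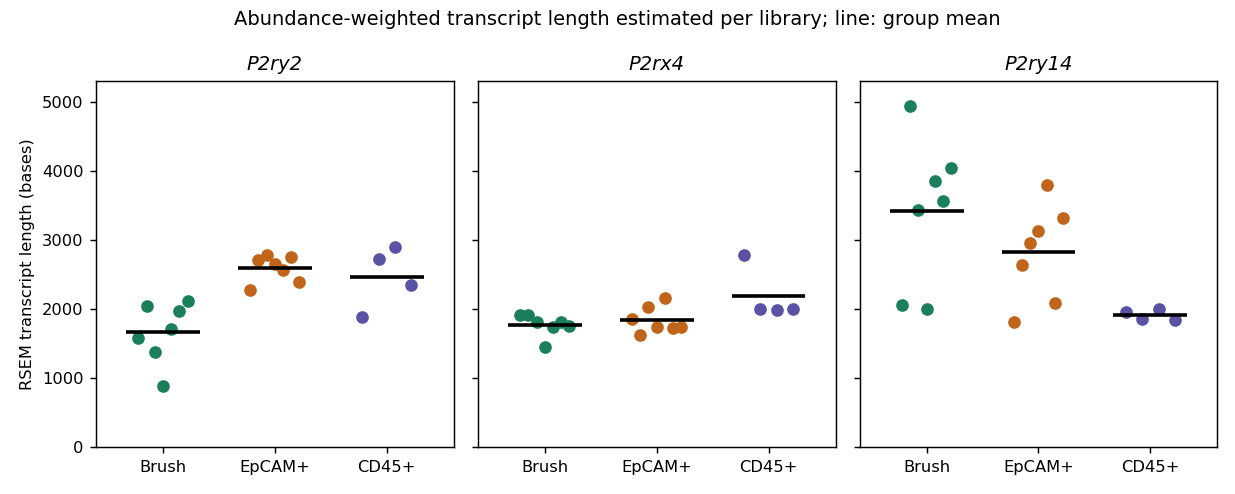
Abundance-weighted transcript length in bases as estimated by RSEM (vertical axis) for P2ry2, P2rx4 and P2ry14, with 1 point per library in 7 brush, 7 EpCAM+ and 4 CD45+ libraries and a line at the group mean. For P2ry2 the brush points, at 886 to 2113 bases, lie below all EpCAM+ points, at 2266 to 2783 bases, and for the other genes the brush and EpCAM+ points overlap.

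P2ry6 encodes the UDP receptor known from macrophages and microglia, and it lies on chromosome 7 (100937630 to 100974649). CD45+ libraries held 14.4, 104, 75.1 and 187 CPM. Brush libraries held 3.63, 2.84, 3.25, 0, 5.44, 2.13 and 1.19 CPM, from 76 counts, and EpCAM+ libraries 0 to 0.539 CPM, from 6 counts. The groups thus lay in the order CD45+, brush, EpCAM+, and only brush replicate 4, at 0, fell into the EpCAM+ range.
P2ry6 was 35.0-fold lower in brush than in CD45+ cells (-5.13 ± 0.54, adjusted p = 3.69e-08, edgeR), 450-fold lower in EpCAM+ than in CD45+ cells (-8.81 ± 0.67, adjusted p = 3.55e-10, edgeR), and higher in brush than in EpCAM+ cells (3.69 ± 0.69, adjusted p = 0.000141, edgeR). EpCAM+ replicate 4 held 4 of the 6 counts, and without it the brush against EpCAM+ difference was 4.57 (adjusted p = 0.000111). The RSEM files hold 1 EpCAM+ count for P2ry6. With RSEM's counts the difference was 5.34 for brush against EpCAM+ cells (adjusted p = 6.85e-06, edgeR). For EpCAM+ against CD45+ cells it was -10.63 (adjusted p = 1.03e-10, edgeR), so both folds depend on the quantification.
Leukocyte genes were counted in brush libraries too. All 5 pan-leukocyte markers had counts there, with a sum of 13.6 to 36.6 CPM, against 0 to 3.21 CPM in EpCAM+ libraries, where Cd53 was at 0. The brush sum was mostly Ptprc, with a mean of 21 CPM. Cd52 went the other way, with 2 brush counts and 17 EpCAM+ counts. The mean brush level as a percentage of the mean CD45+ level was 2.77% for P2ry6, 2.18% for Ptprc (CD45 itself), 0.275% for Laptm5, 0.0805% for Cd53, 0.0608% for Coro1a, and 0.00374% for Cd52. Of 8 macrophage and dendritic cell markers, Mrc1 was at 1.62%, Csf1r at 0.691%, Lyz2 at 0.334%, Adgre1 at 0.264%, C1qa at 0.197%, C1qb at 0.139% and Itgax at 0.0782%, and Flt3 was at 0. P2ry6, Ptprc and Mrc1 thus had the highest of these percentages and the other 4 pan-leukocyte markers lower ones. EpCAM+ cells were above brush cells in Lyz2, at 28.3% of the CD45+ mean, and in no other of the macrophage and dendritic cell markers. The part of leukocyte RNA in the P2ry6 level of brush cells was not tested.

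P2ry14 encodes the receptor for UDP-glucose and related sugars and lies on chromosome 3 (59113855 to 59153618). Brush libraries held 0.357 to 4.53 CPM with a median of 2.72, EpCAM+ libraries 1.54 to 10.7 CPM with a median of 3.10, and CD45+ libraries 8.62, 19.4, 8.98 and 17.5 CPM. Brush libraries lay below all CD45+ libraries, and EpCAM+ replicate 6 reached into the CD45+ range. P2ry14 was lower in brush than in CD45+ cells (-2.41 ± 0.57, adjusted p = 0.00118, edgeR) and lower in EpCAM+ than in CD45+ cells (-1.84 ± 0.55, adjusted p = 0.00907, edgeR), and the epithelial groups differed by -0.58 ± 0.51 (adjusted p = 0.394, edgeR).
The RSEM files hold 197 brush and 222 EpCAM+ counts for P2ry14 where the count table holds 70 and 111. With RSEM's counts the differences from CD45+ cells were -1.37 for brush (adjusted p = 0.0174) and -1.10 for EpCAM+ cells (adjusted p = 0.059, so that call was lost). P2ry14 lies inside Med12l on the opposite strand, with no shared exon bases.

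Adora1, the inhibitory adenosine A1 receptor gene, gave the clearest brush cell pattern of the 10. It lies on chromosome 1 (134199223 to 134235431). Brush libraries held 27.0, 38.3, 32.0, 22.6, 26.7, 28.4 and 41.5 CPM, EpCAM+ libraries 0.802, 1.70, 0.557, 0, 0, 0.288 and 0 CPM, and CD45+ libraries 0, 1.50, 0 and 1.78 CPM. Even the lowest brush library, the shallow replicate 4, lay far above the highest library of the other groups, at 1.78 CPM.
Adora1 was higher in brush than in EpCAM+ cells (5.96 ± 0.65, adjusted p = 1.03e-07, edgeR) and 33.3-fold higher in brush than in CD45+ cells (5.06 ± 0.82, adjusted p = 1.81e-05, edgeR). Because Adora1 passed the filter through brush libraries alone, these p-values are a description. EpCAM+ and CD45+ cells, with 14 and 13 counts, did not differ past the threshold (-0.91 ± 0.88, adjusted p = 0.456, edgeR). EpCAM+ replicate 2 held 8 of the 14 counts, and without it the difference was 6.85. The difference from CD45+ cells was 4.39 without CD45+ replicate 3 and 5.75 without CD45+ replicate 4. Adora1 shares 1162 exon bases, 20.1% of its own, with Mybph on the opposite strand, and Mybph held 43, 1 and 2 counts in the 3 groups against 999, 14 and 13 for Adora1.

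Adora2a, whose adenosine receptor raises cyclic AMP and is known for restraint of leukocytes, was the opposite case, with 0 counts in all 7 brush libraries. It lies on chromosome 10 (75316877 to 75334784). CD45+ libraries held 2.87, 42.4, 26.1 and 26.9 CPM, and EpCAM+ libraries 1.2, 0, 0, 0, 0.925, 0 and 1.89 CPM. Against the floor of 3 counts over the brush group, on pooled counts as for P2rx6, Adora2a was at least 292-fold lower in brush than in CD45+ cells (adjusted p = 4.54e-06, edgeR), and it was 50.1-fold lower in EpCAM+ than in CD45+ cells (-5.65 ± 0.88, adjusted p = 4.48e-05, edgeR). Since Adora2a passed the filter through CD45+ libraries alone, these p-values are a description. From EpCAM+ cells, with 13 counts in 3 libraries, brush cells were at least 4.22-fold lower (adjusted p = 0.0351, edgeR). That call was lost with DESeq2 (adjusted p = 0.0937), with limma voom (adjusted p = 0.421) and without brush replicate 1, 2, 6 or 7 or EpCAM+ replicate 1, 5 or 7 (adjusted p = 0.0512 to 0.0938), and it was at adjusted p = 0.0508 without the 3 libraries that stood apart.

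Compared with CD45+ cells, brush cells had higher levels of P2ry2, P2rx6 and Adora1. P2ry6, P2rx7, P2ry14, P2ry1, Adora2a and, on the call that rested on single libraries, P2rx4 were lower, and P2rx1 was not called. These are 3 of 10 higher and 6 of 10 lower, where 23.4% and 22.4% of all genes tested were called higher and lower, 45.8% in all. Libraries did not overlap in 7 of the 10 receptors, against 30.5% of all genes, and the median log2 fold change was -1.68 over the receptors and 0.05 over all genes. No CD45+ library reached the filter's minimum for Adora1 or P2rx6, and no brush library did for Adora2a, so these counts are a description.
EpCAM+ cells against CD45+ cells gave 3 receptors higher, P2ry1, P2ry2 and P2rx6, and 5 lower, P2rx1, P2rx7, P2ry6, P2ry14 and Adora2a. The background was 22.5% higher and 18.1% lower, 40.5% in all, libraries did not overlap in 5 of the 10 receptors against 27.2% of all genes, and the medians were -1.40 and 0.08. These counts are a description too: no EpCAM+ library reached the minimum for P2rx1, P2ry6 or Adora2a, and no CD45+ library for P2rx6. The 3 comparisons share libraries, so their values stand side by side and were not set against each other.

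**Figure D3:**
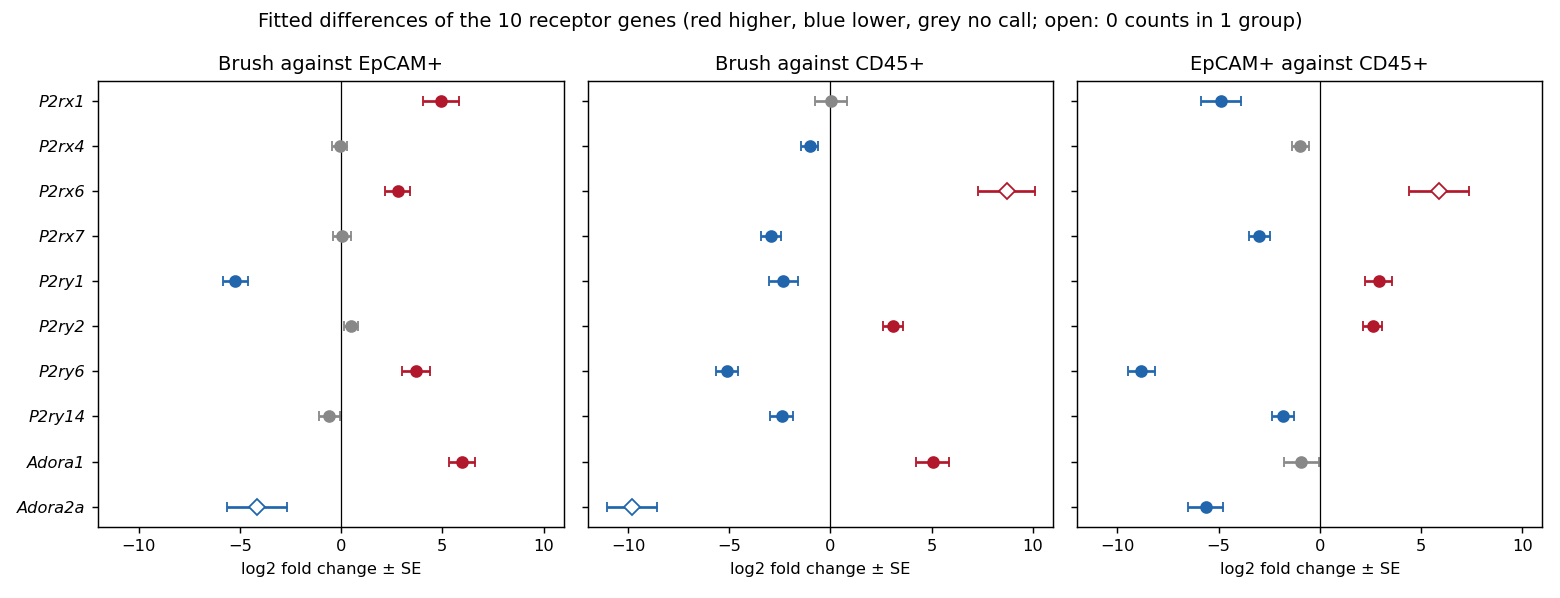
Fitted log2 fold change ± SE (horizontal axis) of the 10 receptor genes in the 3 pairwise comparisons of brush, EpCAM+ and CD45+ cells (1 panel each), with red for higher, blue for lower and grey for no call. Open diamonds mark genes with 0 counts in 1 of the groups, whose fitted values are no bounds. Adora1 is red in both brush comparisons, and P2ry1 is blue in both and red in EpCAM+ against CD45+ cells.

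Levels of different receptors can be compared only per transcript length, on the TPM scale of the RSEM files. In brush cells P2rx4 led with 54.95 ± 20.15 TPM, followed by P2ry2 (25.8), Adora1 (10.9), P2rx6 (6.94), P2rx7 (2.71), P2ry14 (2.43), P2ry6 (1.98), P2rx1 (1.51) and P2ry1 (0.484), with Adora2a at 0. P2ry2 was above Adora1, and Adora1 above P2rx6, in each of the 7 brush libraries, while P2rx4 was above P2ry2 in all but replicate 4. These values rest on RSEM's estimated transcript lengths, which for P2ry2 were shorter in brush than in EpCAM+ libraries. The ranges of P2rx7, P2ry14, P2ry6 and P2rx1 overlapped, so their order is not separated by the spread.
In EpCAM+ cells the TPM order began with P2rx4 (44.4 ± 20.3), P2ry1 (15.4 ± 9.41) and P2ry2 (7.08 ± 4.08), whose ranges overlapped in that order. In CD45+ cells it began with P2rx4 (73.7 ± 43.3) and P2ry6 (65.1 ± 34.6), which did not differ beyond their spread, followed by P2rx7 (12.4 ± 3.10), Adora2a (8.65 ± 5.98) and P2ry14 (8.30 ± 4.37). P2rx4 was thus first in mean TPM in all 3 populations, while the receptor in the next place was P2ry2, P2ry1 and P2ry6 in turn.

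**Figure D4:**
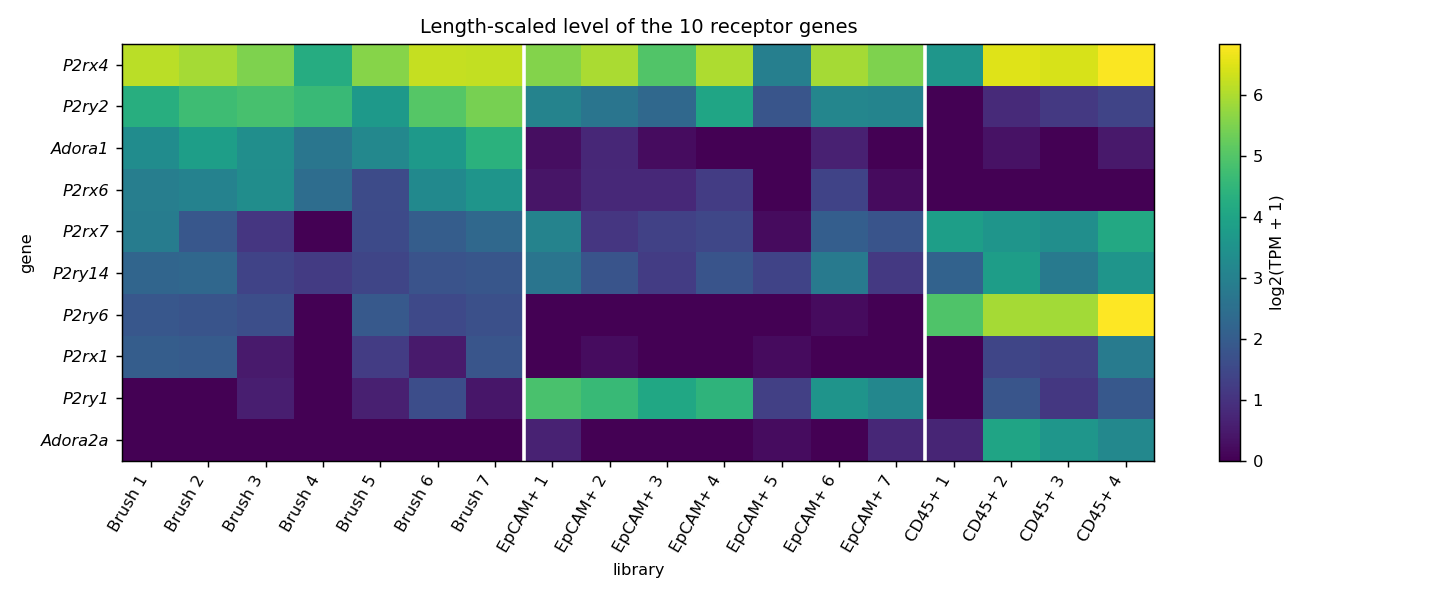
Length-scaled level, as log2 of TPM plus 1 (colour), of the 10 receptor genes (rows) in the 18 libraries (columns, with white lines between groups). The row of P2rx4 is bright in all groups, those of Adora1 and P2rx6 are brightest in the 7 brush libraries, that of P2ry1 mainly in EpCAM+ libraries and that of P2ry6 in CD45+ libraries.

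Likeness across the 18 libraries, as Pearson's r of log2 CPM, is a description, since the libraries fall into 3 groups and share their depth. Among the receptors the closest pairs were Adora1 with P2rx6 (r = 0.83), P2rx7 with P2ry6 (r = 0.826) and P2rx7 with P2ry14 (r = 0.826). Over all genes tested, the pattern most like Adora1 was that of Kdm4a (r = 0.986), and the pattern most like P2rx6 was that of Tmem117 (r = 0.947). P2ry6 was closest to the myeloid gene Cd33 (r = 0.977), followed by Dok2 and Clec5a, Adora2a to Uvrag (r = 0.974) and P2rx7 to Nfkbie (r = 0.935). P2ry1 was closest to Jun (r = 0.942), P2ry2 to Wdr34 (r = 0.953) followed by Lsr, and P2rx4 to Coro1b (r = 0.929). P2rx1 and P2ry14 had the lowest best values, with Tcf25 (r = 0.855) and Clnk (r = 0.84).

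Of the 10 further receptors of these families, 9 are in the count table and 3 were tested. Adora2b, the low-affinity adenosine receptor of epithelia, was lower in brush than in EpCAM+ cells (-4.70 ± 0.53, adjusted p = 1.84e-07, edgeR), with 0 to 1.90 CPM in brush and 13.3 to 42.7 CPM in EpCAM+ libraries and no overlap. It was also lower in brush than in CD45+ cells (-4.08 ± 0.57, adjusted p = 2.32e-06, edgeR). P2ry12, the ADP receptor of platelets and microglia, was higher in brush than in EpCAM+ cells (adjusted p = 0.000111, edgeR), with 83 counts against 2, a ratio of 42.7 (95% counting interval 11.4 to 358). Its brush libraries ranged from 0 to 7.62 CPM with a median of 2.14, below the 11.9 to 69.8 CPM of CD45+ libraries, and brush cells were at 9.29% of the CD45+ mean, beside the 2.18% of Ptprc, whose part in this was not tested.
P2ry10, a lysophospholipid receptor of lymphocytes, held 6 brush counts and 2461 CD45+ counts and was lower in brush than in CD45+ cells (-8.93 ± 0.63, adjusted p = 1.1e-10, edgeR), with a brush level at 0.11% of the CD45+ mean. The others were under the filter. P2ry13, an ADP receptor, held 27, 1 and 295 counts in brush, EpCAM+ and CD45+ libraries, P2rx2 held 3, 65 and 0, P2rx3 13, 14 and 7, P2rx5 23, 49 and 21, Adora3 0, 3 and 39, and the UTP receptor gene P2ry4 0, 0 and 1. DESeq2, with its own filter, also called P2rx2 and P2ry13 between brush and EpCAM+ cells. P2ry10b was not analysed here.

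Of 17 tested enzymes of nucleotide and adenosine breakdown, 4 were higher in brush than in EpCAM+ cells and 7 lower, beside 18.3% and 22% of all genes, with a median of -1.67. The count of higher enzymes is thus near the background share. Entpd3, which hydrolyses ATP and ADP at the cell surface, was at 94.3 to 338 CPM in brush libraries with a median of 225, at 2.04 to 6.05 CPM in EpCAM+ libraries and at 0, 0, 0.657 and 1.27 CPM in CD45+ libraries. No library of the other groups came near the lowest brush library, and Entpd3 was 57.0-fold higher in brush than in EpCAM+ cells (5.83 ± 0.40, adjusted p = 1.42e-10, edgeR) and 333-fold higher than in CD45+ cells (8.38 ± 0.64, adjusted p = 3.66e-10, edgeR).
Entpd1, which encodes CD39, was higher in brush than in EpCAM+ cells (4.05 ± 0.62) at 28.3 against 1.67 CPM, and lower than in CD45+ cells at 135 CPM (-2.25 ± 0.58, adjusted p = 0.00279, edgeR). Entpd7, an enzyme of inner membranes, was higher than in both other groups (3.20 ± 0.26 and 2.39 ± 0.32), as was Adk, which phosphorylates adenosine inside cells (1.66 ± 0.28 and 0.93 ± 0.33).
The 7 lower enzymes were Nt5e, Alpl, Enpp1, Entpd2, Ada, Pnp and Cd38. Nt5e, which encodes CD73 and turns AMP into adenosine, was at 0 to 3.81 CPM in brush and 34.5 to 163 CPM in EpCAM+ libraries (-5.55 ± 0.53, adjusted p = 1.51e-08, edgeR). Alpl, the tissue-nonspecific alkaline phosphatase gene, was lower by a like size (-5.34 ± 0.65) and Enpp1 by somewhat less (-4.06 ± 0.41). Entpd2, which favours ATP over ADP, was lower by a smaller amount, with overlapping libraries (-1.94 ± 0.59, adjusted p = 0.0107, edgeR). Of the genes for adenosine and inosine breakdown, Ada (-3.03 ± 0.63) and Pnp (-1.67 ± 0.30) were lower too, and so was the NAD-consuming enzyme gene Cd38, with 3 counts against 55. Acpp, whose product also removes phosphate from AMP, did not differ past the threshold between the epithelial groups (0.29 ± 0.32, adjusted p = 0.496, edgeR) and was higher in brush than in CD45+ cells (2.74 ± 0.44, adjusted p = 1.75e-05, edgeR). Against CD45+ cells 6 of the 17 enzymes were higher in brush cells and 8 lower, beside 23.4% and 22.4% of all genes, with Bst1 at 1 brush count and Ada at 8.

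No nucleoside transporter gene was called between brush and EpCAM+ cells, of 5 tested by edgeR, where 0 were at an unadjusted p under 0.05. DESeq2 and limma voom also called 0, with 0 and 1 (Slc29a2) at an unadjusted p under 0.05. The equilibrative transporter Slc29a1 was at 7.79 ± 3.15 and 10.8 ± 8.20 CPM there and at 142 ± 94.5 CPM in CD45+ cells, and it was lower in brush than in CD45+ cells (-4.13 ± 0.56, adjusted p = 1.68e-06, edgeR). Slc29a3, the lysosomal member, was lower too (-1.79 ± 0.29), and the concentrative transporter Slc28a2, with 0 brush counts, was at least 267-fold lower.

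Among the 7 tested genes for ATP release and storage, 2 were higher and 3 lower in brush than in EpCAM+ cells, beside 18.3% and 22% of all genes. Calhm1, the pore subunit through which taste cells release ATP, was at 62.9, 44.0, 52.3, 13.2, 22.9, 25.8 and 56.9 CPM in brush libraries and had 0 counts in all 11 others. On pooled counts, the level in brush cells exceeded the floor of 3 counts over the group by at least 481-fold for EpCAM+ cells (adjusted p = 3.37e-08, edgeR) and at least 276-fold for CD45+ cells (adjusted p = 5.81e-07, edgeR). Calhm1 passed the filter on low counts through brush libraries alone, so its p-values are a description. Panx1, which encodes the pannexin channel, was higher than in EpCAM+ cells (1.94 ± 0.47, adjusted p = 0.00172, edgeR) and CD45+ cells (1.54 ± 0.59, adjusted p = 0.0355, edgeR).
Gja1, which encodes connexin 43, was lower in brush than in EpCAM+ cells (-6.18 ± 0.60), with 11 counts against 833. Slc17a9, which loads ATP into vesicles, was lower as well (-2.11 ± 0.49, adjusted p = 0.00135, edgeR), as was Fam26f, with 0 brush counts. Calhm2 did not differ past the threshold from EpCAM+ cells (1.09 ± 0.47, adjusted p = 0.0688, edgeR) and was lower in brush than in CD45+ cells (-1.28 ± 0.52, adjusted p = 0.0496, edgeR).
Over the 4 lists, 7 of 32 tested genes were higher and 11 lower in brush than in EpCAM+ cells, beside 18.3% and 22% of all genes, with a median of -1.2. Against CD45+ cells 8 were higher and 18 lower, beside 23.4% and 22.4% of all genes, with a median of -1.85. The counts and medians of each of these lists are a description too. Calhm1 passed the filter through brush libraries alone, and P2ry10, Slc28a2 and Bst1, among others, through CD45+ libraries alone.

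**Figure D5:**
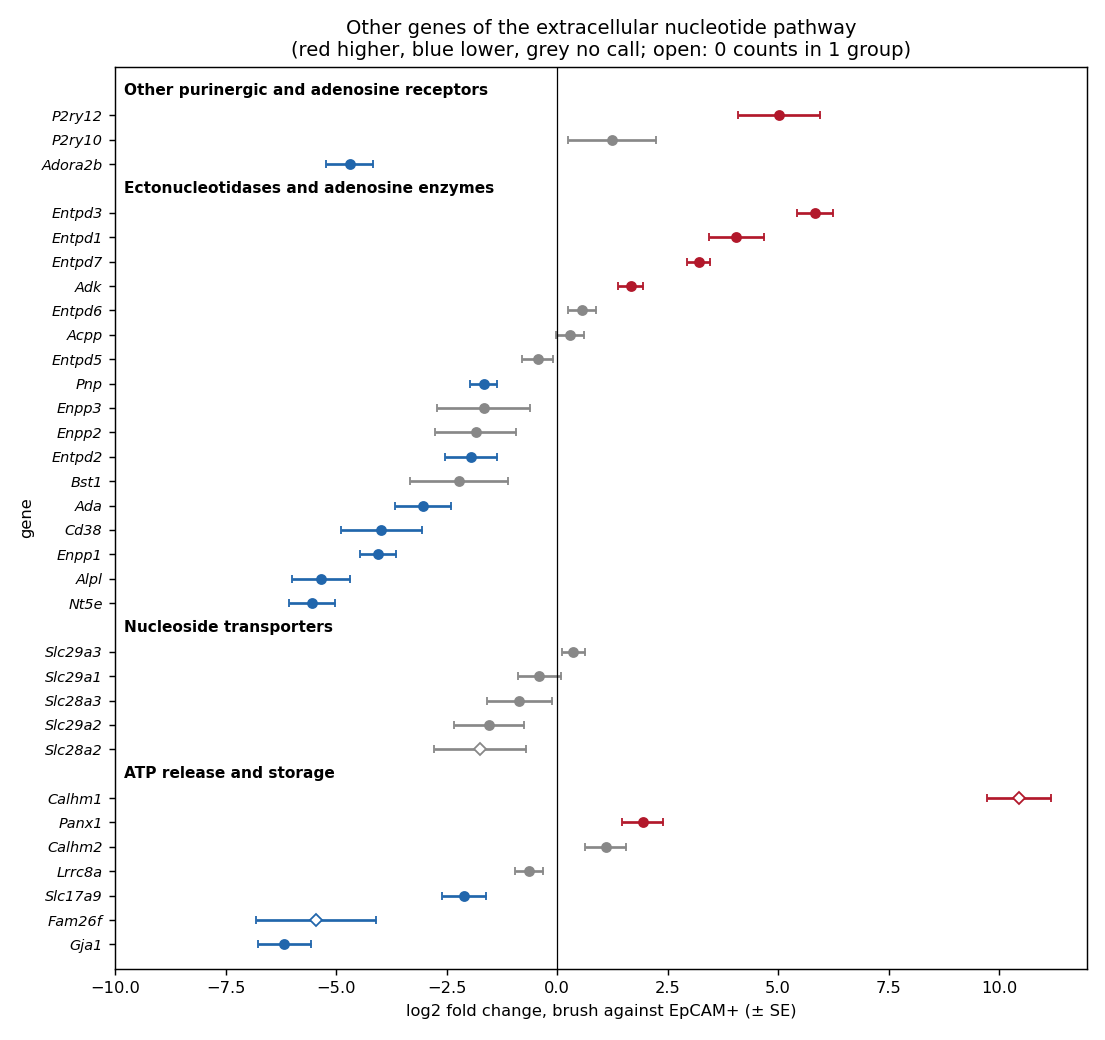
Fitted log2 fold change ± SE of brush against EpCAM+ cells (horizontal axis) for the other tested genes of the pathway, grouped by role, with red for higher, blue for lower, grey for no call and open diamonds for 0 counts in 1 group. Entpd3 (5.83) and Calhm1 lie farthest to the right, and Gja1 (-6.18), Nt5e (-5.55) and Alpl (-5.34) lie far to the left.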

How the data were processed

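Gene counts of 18 RNA-seq libraries were taken from the authors' deposited table of raw counts, which pairs values with gene symbols. Expected counts and TPM came from the authors' deposited RSEM gene files, per the file headers, with Ensembl identifiers. The submitters' processing notes name STAR 2.4.2a, Picard, RSEM 1.2.21, featureCounts, DESeq2 and build mm10, with no role or order, and the sources used here state neither strand setting nor annotation. The deposited normalized table was not used.

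Counts were fitted in edgeR 4.0.16 (quasi-likelihood, TMM, R 4.3.3) with all 18 libraries in 1 model of 3 groups. The filter (filterByExpr by group) asked for about 2.43 CPM in 4 libraries and left 13418 genes, and calls were made at an adjusted p below 0.05. The pipeline was first tested on simulated data. Alternatives used limma 3.58.1 (voom), DESeq2 1.42.0, other filters and scaling, rounded RSEM counts, and fits without single libraries. Floors and counting intervals cover counting error only. No pair of libraries of 1 group agreed within sampling noise (chi-square per degree of freedom of at least 6.11), and ribosomal RNA genes took 12.21 to 63.49% of a library's counts.

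Positions and overlaps come from the GENCODE annotation of GRCm38 and promoter windows from RefSeq. All 10 receptors and all other receptors of the families are named; from the enzyme, transporter and release lists, the rule named up to 4 called genes per direction with the largest change and at least 10 CPM in the higher group, for brush cells against each other group, and the 3 most alike genes per receptor, of which some are not reported here. Values of Entpd1 and Adk against CD45+ cells, and of Ada, Pnp, Cd38, Acpp, Slc29a1, Calhm2, Slc17a9 and Fam26f against EpCAM+ cells, fall outside the rule and were added after they were seen. The receptors and lists were chosen with earlier results of these data known.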

Additional observations from a re-analysis of the deposited data

Results flagged for a closer look

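In 3 cases 1 library lay far from the others of its group, of 28 combinations of receptor and group with 4 or more libraries and some spread. Chance alone gives about 1 in 20 for normally distributed values, and that rate need not hold for low counts. P2rx4 in brush cells was at 26.4 CPM (14 counts) in replicate 4, where the other brush libraries held 56.6 to 74.5 CPM. Replicate 4 was also the brush library with the fewest counts. P2ry14 in EpCAM+ cells was at 10.7 CPM (37 counts) in replicate 6, where the others held 1.54 to 5.21 CPM. P2rx1 in EpCAM+ cells was at 0.617 CPM in replicate 5, which is 2 counts, where the others held 0 to 0.212 CPM.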

How the results depend on the processing

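Counts of called receptors depended on a few low genes. Between brush and EpCAM+ cells, 2 receptors were higher and 1 lower with only these groups fitted, since P2rx1, P2ry6 and Adora2a then fell under the filter. The number lower was 1 with DESeq2, limma voom, a minimum of 10 CPM, RSEM counts or without the 3 libraries that stood apart, and 1 to 2 without single libraries. Between EpCAM+ and CD45+ cells, 2 were lower with a minimum of 10 CPM. Receptors with differences near 0 changed sign. P2rx1 in brush against CD45+ cells was -0.11 with limma voom, -0.98 with RSEM counts and -0.22 to 0.89 without single libraries. P2rx4 in brush against EpCAM+ cells was 0.020 with limma voom and -0.21 to 0.053 without single libraries, and P2rx7 was -0.012 with DESeq2, -0.028 without the 3 libraries that stood apart and -0.28 to 0.35 without single libraries. None of these differences passed the threshold. Of all alternative values of the receptors' fitted differences, 773 kept direction and call, 23 lost a call, 3 gained one and 22 changed sign; the cause was not tested. The few counts of P2ry6 and P2rx1 in EpCAM+ cells limit the precision of their folds.

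Replicate numbers are shared between groups, but not every same-numbered pair deviated together. Correlations ran from -0.0691 to 0.235 for brush and EpCAM+ pairs (4 of 7 over 0.1, with 2 of 7 libraries matching their own number best), from -0.198 to 0.101 for brush and CD45+ pairs (1 of 4 over 0.1) and from -0.18 to 0.263 for EpCAM+ and CD45+ pairs (1 of 4 over 0.1). With the replicate number as a block, 4 receptors were higher and 2 lower in brush than in EpCAM+ cells, and 3 higher and 4 lower in brush than in CD45+ cells, where P2rx4 (-0.89, adjusted p = 0.156) and P2ry1 (-2.0, adjusted p = 0.0539) were no longer called by edgeR. P2rx1 in brush against CD45+ cells was -0.069 and P2rx4 in brush against EpCAM+ cells 0.040 under the block.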
